A study of Rattus norvegicus with 16 samples.

Results

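The comparison described here set zinc-deficient rats (ZD) against pair-fed rats (PF) after 10 days, in the diencephalon, a region of the forebrain made up mainly of thalamus and hypothalamus. It used the 8 arrays named by the labels for these groups (ZD rats 2, 3, 8 and 9, and PF rats 1, 2, 4 and 6) out of 16 arrays in the series. All animals were male Sprague-Dawley rats that entered at 5 weeks of age and were housed singly. ZD rats ate freely from a diet with 0.6 mg zinc per kg. PF rats were given as much as ZD rats had eaten, of the same base diet brought to 30 mg zinc per kg, so both groups ate like amounts of food. Both groups were offered 300 mM NaCl beside water in a preference test during the deficient period, which ended before the tissue was taken. The experiment began with 9 ZD and 6 PF rats, and the 4 of each group put on arrays had been chosen by the submitters as average in body weight, plasma zinc and salt preference. P values therefore measure the spread among selected individual rats, 1 array each. A later experiment in the same series gave zinc back: ZR rats had 10 days of the deficient diet and 6 days on 13 g of the control diet, and ZRPF rats were their pair-fed counterparts, 4 arrays each.

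Zinc is a structural or catalytic part of many proteins, among them zinc finger transcription factors, carbonic anhydrases and superoxide dismutase. Cells take it up through the Slc39a importers, pass it into vesicles or out of the cell through the Slc30a exporters, and store it on metallothioneins, whose genes are switched on by the zinc-sensing factor MTF1. Rats on a zinc-deficient diet eat little and in a cyclic pattern. Pair-feeding is used to separate lack of zinc from lack of food.

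The deposited values were MAS5 signal intensities per probe set, used here as log2. A probe set was tested where its mean log2 signal over the 16 arrays was at or above the median of all probe sets, and a gene was read from its brightest tested probe set. Of 21 thalamus markers on the array 19 were bright enough to test, of 23 hypothalamus markers 14, of 15 striatum and cortex markers 9, and of 9 pituitary markers 1, against 9278 of all 14217 genes. The thalamus count thus stood above that of all genes, and the hypothalamus count was close to it and to that of striatum and cortex. Log2 signals correlated at 0.974 to 0.984 among ZD arrays, at 0.982 to 0.987 among PF arrays and at 0.975 to 0.985 between the groups. The 3′ to 5′ signal ratio of *Gapdh* was 1.03 to 1.11 in ZD arrays and 1.07 to 1.10 in PF arrays. That of actin was lowest in ZD rats 8 and 9 (2.59 and 2.73), against 3.19 and 2.93 in ZD rats 2 and 3 and 2.82 to 3.31 in PF rats. ZD arrays 8 and 9 had the lowest weights of the 8 when arrays were weighted by their fit (0.681 and 0.523), and several genes described later divided ZD rats 2 and 3 from ZD rats 8 and 9. The labels give no litter, cage, day or scan batch. For many of the genes and lists in which these 2 rats stood apart, the value without them is given beside the value with all rats.

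No probe set differed between ZD and PF at an adjusted p under 0.05 in limma (0 of 15521, 0.0%), and the smallest adjusted p was 0.151, shared by 24 probe sets. At an unadjusted p under 0.05 there were 1220 probe sets. Counted by gene, with 1 probe set each, 737 of 9278 genes (7.94%) had an unadjusted p under 0.05, 440 with higher and 297 with lower signal in ZD. The 4 ZD arrays lay all above the 4 PF arrays in 271 genes (2.92%) and all below in 133 (1.43%), so that 404 genes (4.35%) had groups without overlap. By the sign of the change alone, 55.6% of genes were above 0 and 44.4% below it. These shares are the background against which counts in gene lists are read. The excess of higher genes depends on scaling: the share of non-overlapping genes that were higher in ZD was 67.1% as deposited, 63.2% after quantile normalization and 36.1% after each array was centred on its median. The differences were small, with a median log2 change (ZD minus PF) of 0.017, the central 95% of genes between -0.262 and 0.308, and a change beyond 1 in either direction in 5 genes. These were *Ttr*, *Gpd1* and *Pdk4*, described below, and *Grifin* (-1.37 ± 0.74) and *Bmp4* (-1.30 ± 0.83), both named after their values were seen and both overlapping between the groups. Without ZD rats 8 and 9 the change was -0.27 for *Pdk4*, -0.07 for *Grifin* and -0.45 for *Bmp4*. In the text that follows, a change is the log2 difference ZD minus PF with its standard error from limma, a value per rat is a log2 signal, 4 values of a group stand in the order of rats 2, 3, 8 and 9 (ZD) or 1, 2, 4 and 6 (PF), and no named gene passed the threshold unless said.

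The genes with the smallest p on the higher side were a mixed group of adhesion, cytoskeletal, immune and clock genes. *Cdh15*, a cadherin, had log2 signals of 7.77, 7.66, 7.68 and 7.68 in ZD rats and 7.05, 6.83, 7.30 and 7.04 in PF rats. The ZD rats stood close together and above every PF rat, a change of 0.64 ± 0.12 (adjusted p = 0.151, limma). Every PF value lay below the filter cutoff of 7.351 and every ZD value above it, so this gene was dim in PF rats. *Tagln*, which encodes the actin-binding protein transgelin of smooth muscle, had 8.69, 8.26, 9.28 and 8.38 in ZD rats and 7.94, 7.75, 7.69 and 7.58 in PF rats. Every ZD rat was above every PF rat, with ZD rat 8 the highest, and the change was 0.91 ± 0.17, or 1.88-fold. *Tbc1d13*, a GTPase-activating protein of membrane traffic, had 9.74, 9.66, 9.73 and 9.81 in ZD rats and 9.26, 9.21, 9.20 and 9.04 in PF rats. Its groups were apart by more than either was wide, with a change of 0.56 ± 0.11. *Crip1*, a small LIM-domain protein that binds zinc, had 8.38, 8.47, 8.57 and 8.75 in ZD rats and 7.65, 7.72, 7.78 and 8.28 in PF rats, without overlap (0.69 ± 0.15). The other genes of this group, also without overlap, were *Aldh3b1*, an aldehyde dehydrogenase (0.60 ± 0.13), *C1qtnf12*, a secreted relative of adiponectin (0.75 ± 0.17), *Pxylp1*, a phosphatase of proteoglycan synthesis (0.53 ± 0.12), and *Ezr*, the membrane-to-actin linker ezrin (0.43 ± 0.10). By size of change *Cdkl4* (0.69 ± 0.23), *Prrc2a* (0.63 ± 0.16) and *Slc35d3* (0.61 ± 0.16) joined them. Adjusted p among the 12 genes of smallest p on this side ran from 0.151 to 0.224.

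On the lower side stood genes of neurons, metabolism and RNA processing. *Lrrn3*, a leucine-rich repeat membrane protein of neurons, had 10.53, 10.58, 10.75 and 10.53 in ZD rats and 10.98, 11.08, 11.24 and 11.32 in PF rats. No ZD rat reached the lowest PF rat, and the change was -0.55 ± 0.09. *Gpd1*, the cytosolic glycerol-3-phosphate dehydrogenase that links glycolysis to lipid synthesis, had 11.36, 11.22, 11.59 and 11.95 in ZD rats and 12.14, 12.34, 12.64 and 13.01 in PF rats. The groups did not overlap, and the PF signal was 2.0-fold that of ZD (-1.0 ± 0.21). *Slc38a2*, a sodium-coupled amino acid transporter, had 11.51, 11.35, 11.91 and 11.52 in ZD rats and 12.00, 12.00, 11.92 and 12.37 in PF rats. ZD rat 8 lay just under the lowest PF rat, and the change was -0.50 ± 0.12. *Npy1r*, the Y1 receptor of neuropeptide Y, had 9.16, 9.43, 9.84 and 9.31 in ZD rats and 9.83, 10.13, 10.03 and 10.13 in PF rats. Its groups overlapped through ZD rat 8 alone, at a change of -0.59 ± 0.12. Without ZD rat 8, *Npy1r* (-0.73, adjusted p = 0.0256) and *Lrrn3* (-0.61, adjusted p = 0.0467) passed the threshold in limma, where *Lrrn3* and *Npy1r* had an adjusted p of 0.151 with all arrays.

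The remaining genes of smallest p with lower signal were *Cryab* and *Tra2a*, taken up below, *Lyrm2*, a mitochondrial protein (-0.38 ± 0.08, with 0.18 on its second probe set), *C19h16orf87* (-0.36 ± 0.08), *Zfp638*, a zinc finger protein that binds nucleic acids (-0.41 ± 0.09), *Amot*, the junction protein angiomotin (-0.39 ± 0.09), *Cert1*, the ceramide carrier (-0.32 ± 0.08), and *Car7*, a carbonic anhydrase (-0.63 ± 0.15). Each had groups without overlap. Among larger changes without overlap were *Ap1s3*, a clathrin adaptor subunit (-0.90 ± 0.29), *Prpf38b*, a splicing factor (-0.81 ± 0.19), *Ddit4*, an inhibitor of mTOR signalling (-0.61 ± 0.23), *P4ha1*, a collagen prolyl hydroxylase (-0.59 ± 0.15), *Acer2*, a ceramidase (-0.58 ± 0.15), and *Mettl25b* (-0.60 ± 0.16). The plot of single rats shows how narrow the gaps between groups were for most of the genes of smallest p. The genes named here for larger changes are not in it.

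**Figure D1:**
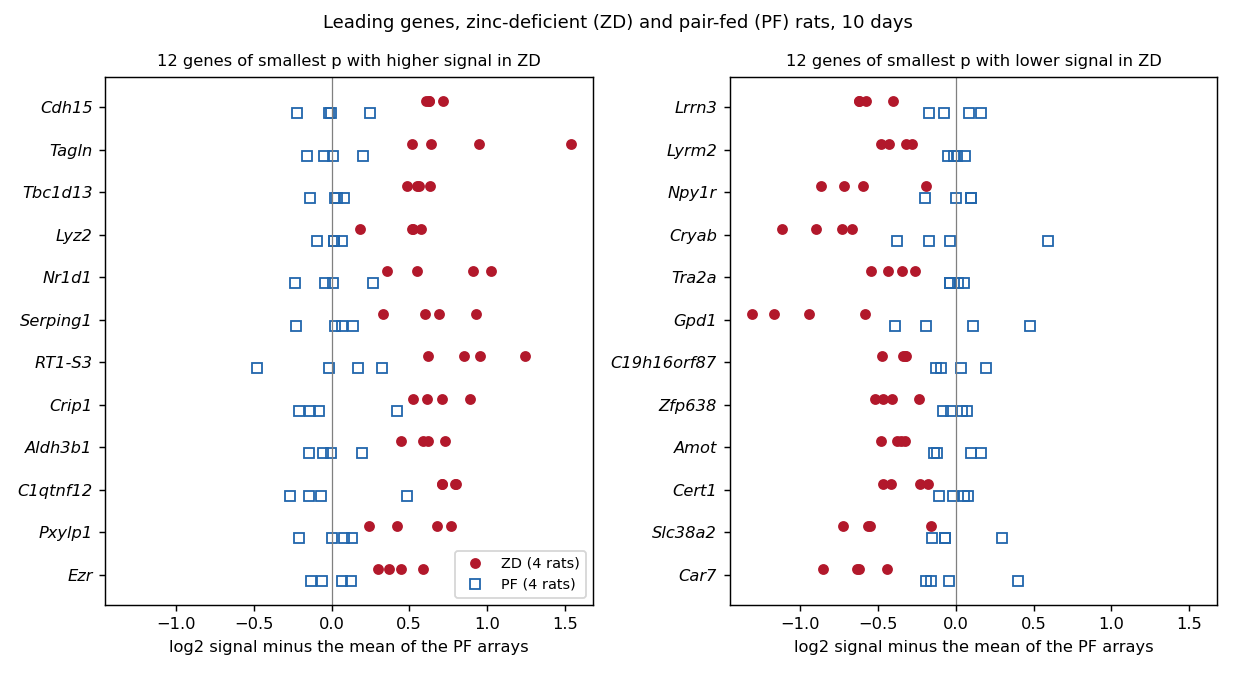
Log2 signal of each array minus the mean of the 4 PF arrays, for the 12 genes of smallest p in each direction; filled circles are ZD rats and open squares PF rats. Groups do not overlap in 12 of 12 genes with higher signal and in 11 of 12 with lower signal, the exception being *Npy1r*. The genes were chosen for a small p in these same arrays, which by itself favours groups without overlap. Over all genes the share without overlap was 4.35%. No gene passed the threshold (adjusted p of 0.151 to 0.224, limma).

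Genes of the circadian clock moved apart from one another. The clock is a loop in which CLOCK and BMAL1 drive the Per, Cry and Nr1d genes and the output factor Dbp, whose proteins then act back on the loop, so that each gene has its own hour of peak. Of 20 clock genes tested, 10 were higher and 10 lower, with a median change of 0.00 against 0.017 over all genes. All 4 ZD rats lay above all PF rats in 2 of them and below in 1, against 2.92% and 1.43% of all genes. *Nr1d1*, the repressor REV-ERB alpha, had 8.30, 8.49, 8.85 and 8.97 in ZD rats and 7.95, 7.90, 8.21 and 7.71 in PF rats. Each ZD rat was above each PF rat, and ZD rats 8 and 9 were the highest, a change of 0.71 ± 0.15 (adjusted p = 0.151), or 0.46 without these 2. *Dbp*, a PAR-bZIP output factor, had 10.40, 10.65, 10.40 and 10.69 in ZD rats and 10.37, 10.24, 10.13 and 9.90 in PF rats, without overlap (0.37 ± 0.12). *Per3* stood on the same side with a change of 0.62 ± 0.18, its groups overlapping through ZD rat 2 (8.69) and PF rat 4 (8.71).

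Other period and cryptochrome genes stood on the opposite side. *Per2* had 9.30, 9.32, 9.47 and 9.23 in ZD rats and 9.51, 9.77, 9.83 and 9.64 in PF rats. All ZD rats were below all PF rats, a change of -0.35 ± 0.09 (adjusted p = 0.265). *Cry1* had 9.10, 8.75, 8.77 and 8.80 in ZD rats and 9.01, 9.13, 9.46 and 9.30 in PF rats, an overlap made by ZD rat 2 (-0.37 ± 0.15). *Per1*, which also responds to glucocorticoids, had 9.53 and 9.45 in ZD rats 2 and 3 and 8.61 and 8.53 in ZD rats 8 and 9, against 9.26 to 9.49 in PF rats. *Per1* was thus low in 2 of 4 ZD rats only; its change was -0.36 ± 0.18 with all arrays and 0.10 without ZD rats 8 and 9. The hour at which each rat was killed is not in the labels.

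The cold-inducible RNA-binding proteins stood higher in ZD and heat shock chaperones lower. *Rbm3* and *Cirbp* encode small RNA-binding proteins known for higher expression at mild hypothermia, and *Cirbp* also for daily rhythm. *Rbm3* had 11.80, 11.85, 12.02 and 11.87 in ZD rats and 11.62, 11.23, 11.62 and 11.19 in PF rats. *Cirbp* had 10.34, 10.34, 10.31 and 10.49 in ZD rats and 10.12, 10.05, 10.18 and 9.93 in PF rats. Neither gene overlapped, with changes of 0.47 ± 0.12 (*Rbm3*, adjusted p = 0.265) and 0.30 ± 0.08 (*Cirbp*, adjusted p = 0.288), and the 2 other probe sets of *Cirbp* stood at 0.35 and 0.54. Both were taken from a list of 27 splicing and RNA-binding proteins of which 19 were lower and 8 higher (median -0.10). In 7 of the 27 the groups did not overlap (3 higher and 4 lower), against 4.35% of all genes. An unadjusted p under 0.05 in limma was found in 9 of them, 4 higher and 5 lower, against 7.94% of all genes. The lower members without overlap included *Tra2a*, a splicing activator, with 10.85, 11.02, 10.94 and 10.74 in ZD rats and 11.30, 11.25, 11.25 and 11.34 in PF rats (-0.40 ± 0.08, adjusted p = 0.151). *Clk1*, a kinase of splicing factors, stood at -0.30 ± 0.09 and *Hnrnpa1*, a splicing repressor, at -0.24 ± 0.09; the other probe sets of *Hnrnpa1* stood at -0.09 and 0.06.

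Heat shock chaperones refold or hold damaged proteins and are driven by the factor HSF1. Those listed here, mostly cytosolic but with *Hspd1* and *Hspe1* of mitochondria among them, were lower in ZD in 20 of 21 genes tested. Their median change was -0.15, against 0.017 over all genes, and it lay between -0.19 and -0.11 under every alternative processing and with each rat left out. In 6 of the 21 the unadjusted p in limma was under 0.05, all lower, against 7.94% of all genes in either direction. Groups without overlap were found in 2, against 4.35% of all genes. *Cryab*, the small heat shock protein alpha-B crystallin, had 11.18, 10.96, 11.35 and 11.41 in ZD rats and 12.04, 11.70, 11.91 and 12.67 in PF rats. Every ZD rat was below every PF rat, and PF rat 6 was the highest (-0.86 ± 0.18, adjusted p = 0.151). *Chordc1*, a co-chaperone of HSP90, had 10.59, 10.82, 10.77 and 10.80 in ZD rats and 11.07, 11.19, 10.98 and 11.38 in PF rats, again without overlap (-0.41 ± 0.12). The HSP70 and HSP90 adaptor *Stip1* stood at -0.25 ± 0.09, the HSP40 *Dnaja1* at -0.18 ± 0.07 and the HSP70 relative *Hspa4l* at -0.19 ± 0.08, each with groups that overlapped. The mean of the list per rat, relative to the 8 arrays, was -0.10, -0.13, -0.10 and -0.02 in ZD rats and 0.04, 0.13, -0.01 and 0.21 in PF rats. All ZD rats were below all PF rats, though ZD rat 9 and PF rat 4 were nearly level.

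Chaperones and folding enzymes of the endoplasmic reticulum, which the unfolded protein response raises through XBP1 and ATF6, were lower in 22 of 25 genes, with a median of -0.09 (-0.14 to -0.06 over the alternatives). In 7 of the 25 there was an unadjusted p under 0.05 in limma, all lower, against 7.94% of all genes in either direction. *Sdf2l1*, a component of the chaperone complex of the endoplasmic reticulum, had 9.21, 9.07, 8.86 and 9.37 in ZD rats and 9.58, 9.84, 9.45 and 10.06 in PF rats, without overlap (-0.60 ± 0.16, adjusted p = 0.265). *Hspa5*, the HSP70 of this compartment also called BiP, had 12.65, 12.55, 12.50 and 12.21 in ZD rats and 12.90, 12.89, 12.57 and 13.08 in PF rats. PF rat 4 lay within the range of the ZD rats, and the change was -0.38 ± 0.11. *Manf*, a secreted protein of the stress response, stood at -0.35 ± 0.11, *Xbp1* at -0.18 ± 0.08 and the disulphide isomerase *Pdia6* at -0.15 ± 0.06. List means per rat were -0.12 to -0.03 in ZD and -0.03 to 0.16 in PF, with PF rats 2 and 6 the highest. The difference in RNA of *Xbp1* says nothing of its splicing, which these probe sets do not resolve.

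Promoters of both chaperone lists are known for response elements that XBP1, ATF6 and HSF1 read, and some are printed here to set the letters beside the values. In the 250 bases before the start, from RefSeq on build GRCr8, the endoplasmic reticulum stress element (CCAAT, any 9 bases, CCACG, on either strand) was found in 9 of 21 promoters of the list that had one in the table (42.9%), against 21 of 27457 promoters overall (0.0765%). Below are the windows of the 8 genes with the element that were tested, ordered by their change from the lowest to the 1 gene higher in ZD, each 5′ to 3′ on the gene's own strand with the element in capitals, which reads as CGTGG first where it lies on the other strand.
Hspa5, chr3:38452943-38453015, plus strand, change -0.38: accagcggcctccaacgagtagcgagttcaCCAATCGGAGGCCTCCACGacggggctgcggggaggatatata
Creld2, chr7:121789209-121789287, plus strand, change -0.26: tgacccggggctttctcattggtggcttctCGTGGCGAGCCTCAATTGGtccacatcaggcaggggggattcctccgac
Dnajc3, chr15:102432504-102432582, plus strand, change -0.23: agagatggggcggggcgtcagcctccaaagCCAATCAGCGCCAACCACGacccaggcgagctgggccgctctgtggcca
Xbp1, chr14:84604528-84604606, plus strand, change -0.18: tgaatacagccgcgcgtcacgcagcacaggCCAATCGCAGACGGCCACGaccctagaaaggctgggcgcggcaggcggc
Hsp90b1, chr7:23012317-23012499, minus strand, change -0.17: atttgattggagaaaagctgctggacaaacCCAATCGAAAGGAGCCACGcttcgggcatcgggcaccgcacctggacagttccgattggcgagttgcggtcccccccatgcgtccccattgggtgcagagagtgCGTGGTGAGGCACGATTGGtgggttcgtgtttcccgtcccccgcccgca
Canx, chr10:35158039-35158107, minus strand, change -0.10: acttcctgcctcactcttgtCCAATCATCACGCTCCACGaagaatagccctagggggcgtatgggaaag
Calr, chr19:40213117-40213183, plus strand, change -0.09: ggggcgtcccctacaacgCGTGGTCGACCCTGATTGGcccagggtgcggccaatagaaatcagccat
Ero1b, chr17:92941432-92941506, plus strand, change 0.15: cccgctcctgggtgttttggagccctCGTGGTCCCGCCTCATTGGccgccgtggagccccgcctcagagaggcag

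Of the genes with the element, 8 were tested and 7 were lower in ZD, with a median of -0.17 and a range of -0.38 to 0.15. The 12 tested genes whose promoter window lacked it were all lower, with a median of -0.07 and a range of -0.60 to -0.01. Low signal in the list was thus not limited to genes with this element in the window, and the difference between these medians was not tested. The core of the heat shock element (GAA, any 2 bases, TTC) was found in 11 of 20 promoters of the heat shock chaperone list (55.0%), against 7.02% of all promoters, a motif that reads alike on both strands. Windows of 4 of the 10 tested genes with this core show it in capitals, with changes of -0.18 (*Dnaja1*), -0.23 (*Dnajb1*), -0.07 (*Hsph1*) and -0.08 (*Bag3*). *Dnajb1* and *Dnaja1* had the lowest changes of the 10.
Dnaja1, chr5:60638193-60638260, plus strand: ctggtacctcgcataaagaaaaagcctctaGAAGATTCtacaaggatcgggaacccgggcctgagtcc
Dnajb1, chr19:41431142-41431182, minus strand: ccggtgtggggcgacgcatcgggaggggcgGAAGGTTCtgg
Hsph1, chr12:10427307-10427367, plus strand: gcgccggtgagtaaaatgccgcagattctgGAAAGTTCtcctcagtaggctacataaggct
Bag3, chr1:192533298-192533365, plus strand: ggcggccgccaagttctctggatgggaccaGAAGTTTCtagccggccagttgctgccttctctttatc

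The 10 tested genes with this core were all lower in ZD (median -0.08, range -0.23 to -0.01), and so were the 8 tested genes whose window lacked it (median -0.19, range -0.41 to -0.02). A match in these windows is a description of the letters and not a measure of binding.

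**Figure D2:**
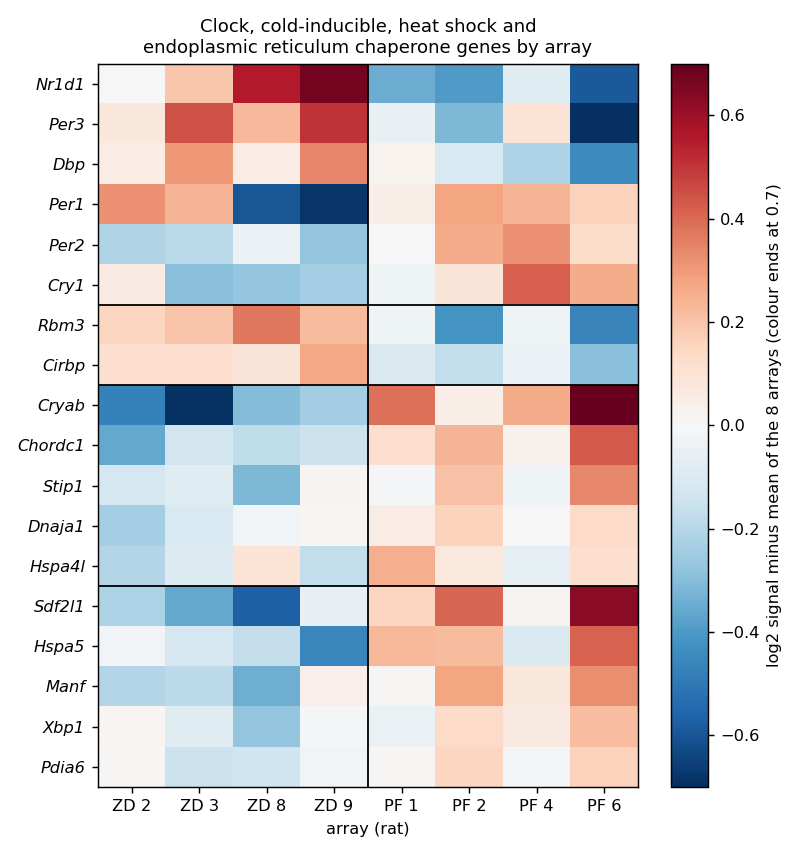
Colour map of log2 signal minus the mean of the 8 arrays, with genes in rows (6 clock, 2 cold-inducible, 5 heat shock and 5 endoplasmic reticulum genes) and rats in columns, ZD to the left of PF. *Nr1d1*, *Per3*, *Dbp*, *Rbm3* and *Cirbp* are red or near white in ZD and the chaperones mostly blue; *Per1* is blue in ZD rats 8 and 9 only, and PF rat 6 is the deepest red for *Cryab* and *Sdf2l1*.

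Among genes known to be raised by glucocorticoids, 18 of 20 tested had lower signal in ZD, with a median change of -0.30. An unadjusted p under 0.05 in limma was found in 6 of the 20 on the lower side and 1 on the higher, against 7.94% of all genes in either direction. Glucocorticoids act through a receptor that is itself a zinc finger protein, and fasting raises them. List means per rat were -0.02, 0.05, -0.30 and -0.39 in ZD rats 2, 3, 8 and 9, against -0.08, 0.25, 0.02 and 0.47 in PF rats 1, 2, 4 and 6. ZD rats 8 and 9 lay below every PF rat, ZD rats 2 and 3 lay within the PF range, and PF rat 6 was the highest of the 8. The median was -0.13 with 15 of 20 genes lower without ZD rats 8 and 9, and -0.17 with 16 of 20 lower without PF rat 6. *Pdk4*, the kinase that restrains glucose oxidation, had 9.48, 9.41, 8.23 and 7.40 in ZD rats and 9.03, 10.27, 9.17 and 10.38 in PF rats. *Sgk1*, a kinase of ion transport that aldosterone and corticosterone induce, had 12.54, 12.44, 11.20 and 10.21 in ZD rats and 11.87, 12.79, 12.46 and 12.97 in PF rats. In both, ZD rats 8 and 9 were the lowest of all 8 rats and ZD rats 2 and 3 stood among the PF rats, at changes of -1.08 ± 0.41 (*Pdk4*) and -0.92 ± 0.39 (*Sgk1*). Without ZD rats 8 and 9 these were -0.27 (*Pdk4*) and -0.03 (*Sgk1*). *Arrdc2* (-0.54 ± 0.17, or -0.33 without these 2 rats) and *Bcl6* (-0.40 ± 0.15, or -0.22 without them) stood lower as well. *Tsc22d3*, the leucine zipper GILZ, was at -0.26 ± 0.10, and at -0.32 without these 2 rats. *Fkbp5*, a chaperone of the receptor, was at -0.14 ± 0.21 with all rats and lower, at -0.45, without them. *Net1* stood higher (0.44 ± 0.14, or 0.43 without them). A glucocorticoid response element (AGAACA, any 3 bases, TGT) was found in 1 of 24 promoter windows of this list (4.17%), against 0.346% of all promoters. Known elements of such genes often lie outside this window.

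The same pairs of ZD rats stood apart in genes that answer to recent activity or handling. Immediate early genes, which neurons switch on within minutes, had list means of 0.18 and 0.19 in ZD rats 2 and 3, of -0.22 and -0.22 in ZD rats 8 and 9, and of -0.07 to 0.10 in PF rats. Of 14 tested, 7 were higher and 7 lower (median -0.04), and without ZD rats 8 and 9 the median was 0.10 with 11 higher. *Nr4a3*, an orphan nuclear receptor, had 7.80, 7.71, 6.72 and 6.73 in ZD rats and 7.50 to 7.99 in PF rats, a change of -0.52 with all rats and -0.01 without ZD rats 8 and 9. *Fos* stood at -0.25 ± 0.18 with all arrays and 0.03 without ZD rats 8 and 9, and *Egr1* at 0.36 ± 0.17 with all arrays and 0.62 without them. Members that did not follow the split were *Jund*, higher in all 4 ZD rats (0.23 ± 0.08), and *Ier5*, at 9.03, 8.62, 8.90 and 9.22 in ZD rats and 8.25 to 8.67 in PF rats (0.46 ± 0.13). The 1 pituitary marker tested, *Cga*, the alpha subunit of the glycoprotein hormones, also divided these rats, with 9.33 and 8.87 in ZD rats 2 and 3, 5.46 and 4.15 in ZD rats 8 and 9, and 5.96 to 8.68 in PF rats, a change of -0.55 with all rats and 1.60 without ZD rats 8 and 9. *Cga* is made in the pituitary and the pars tuberalis around its stalk. The other pituitary markers on the array were too dim to test, and the part of dissection in these splits was not tested.

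**Figure D3:**
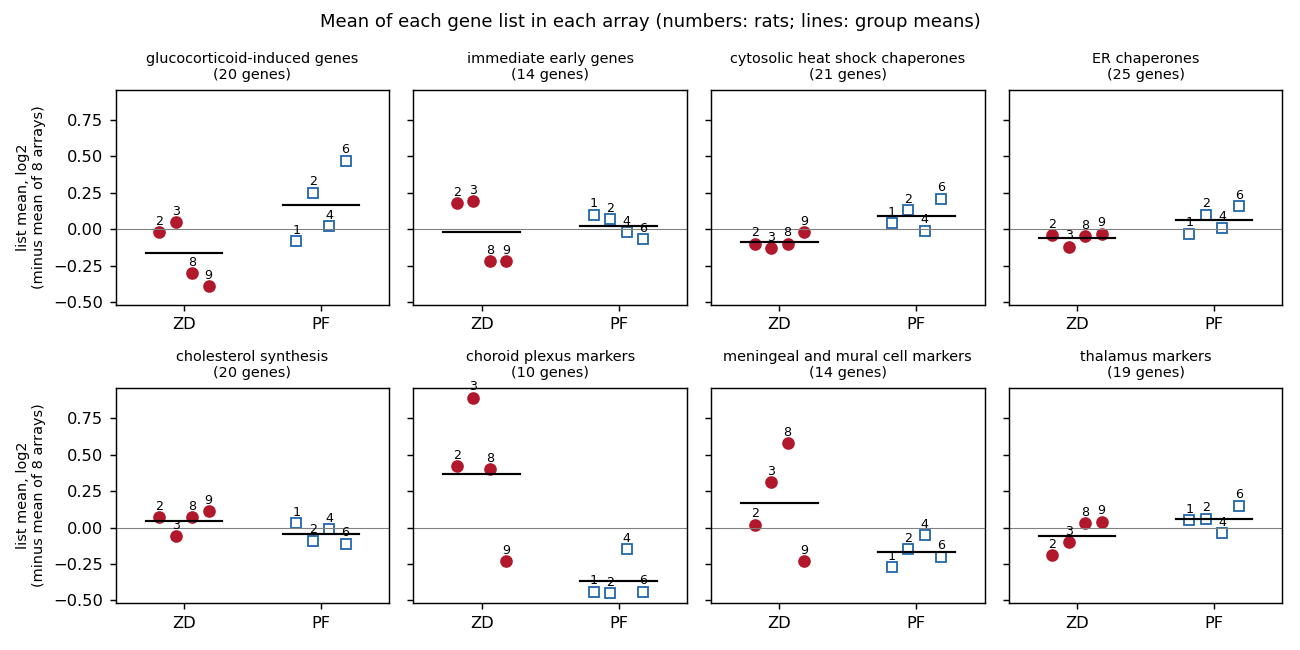
Mean of each gene list in each rat, on the log2 scale relative to the mean of the 8 arrays; each panel is 1 list, ZD left and PF right, numbers are rats and lines group means. Heat shock chaperones lie lower in all 4 ZD rats than in PF, the glucocorticoid and immediate early lists divide ZD rats 2 and 3 from ZD rats 8 and 9, and choroid plexus markers are high in 3 of 4 ZD rats.

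Zinc handling itself differed little. Of 8 tested importers of the Slc39a family 6 were higher in ZD, with a median of 0.09. *Slc39a10*, a plasma membrane importer, had 11.39, 11.46, 11.54 and 11.35 in ZD rats and 11.22, 11.23, 11.25 and 11.06 in PF rats. The groups did not overlap, and the change was 0.25 ± 0.06, or 1.19-fold (adjusted p = 0.265). *Slc39a7*, which releases zinc from the endoplasmic reticulum, stood at 0.43 ± 0.16 with an overlap made by ZD rat 9 (9.91) and PF rat 4 (10.27). *Slc39a1* was at 0.10 ± 0.09, *Slc39a11* at 0.12 ± 0.10, and *Slc39a3* at -0.16 ± 0.13 with 0.50 on its second probe set. Of 6 exporters of the Slc30a family 3 were higher and 3 lower (median -0.01), *Slc30a4* being farthest from 0 in relation to its error (-0.09 ± 0.09). Of 11 zinc enzymes 8 were lower (median -0.03), among them *Car7* as given above, *Car3* (-0.76 ± 0.63, a value set by PF rat 1 at 10.37) and *Sod2*, which carries manganese and was listed as a relative of the zinc enzyme (-0.12 ± 0.09). *Car2*, the abundant cytosolic carbonic anhydrase, stood at 0.15 ± 0.11.

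Metallothionein RNA overlapped between the groups in both genes tested, of which *Mt2A* was also a member of the glucocorticoid-induced list. *Mt2A* had 10.28, 9.94, 10.35 and 10.57 in ZD rats and 10.52, 10.33, 10.50 and 10.66 in PF rats (-0.22 ± 0.19). *Mt3*, the metallothionein of the brain, had 13.84, 13.64, 13.48 and 13.67 in ZD rats and 13.64, 13.62, 13.52 and 13.66 in PF rats (0.05 ± 0.10). *Mtf1* stood at -0.00 ± 0.08. *Mt1* and the exporter *Slc30a1*, both targets of MTF1, were too dim to test. The metal response element that MTF1 reads (TGCGCNC or TGCACNC on either strand) occurred in all 5 promoters of the list, against 21.2% of all promoters, and the window of *Mt2A* held 4 copies and that of *Mt3* 3, shown in capitals.
Mt2A, chr19:10838727-10838958, minus strand: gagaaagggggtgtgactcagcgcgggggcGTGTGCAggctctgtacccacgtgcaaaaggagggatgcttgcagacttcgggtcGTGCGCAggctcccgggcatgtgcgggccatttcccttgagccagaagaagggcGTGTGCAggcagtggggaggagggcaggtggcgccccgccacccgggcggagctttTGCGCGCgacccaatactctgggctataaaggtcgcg
Mt3, chr19:10856095-10856220, minus strand: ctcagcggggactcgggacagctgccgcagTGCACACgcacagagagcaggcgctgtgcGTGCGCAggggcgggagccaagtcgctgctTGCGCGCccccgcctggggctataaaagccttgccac

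Amino acid and lipid genes gave small differences in named steps. *Phgdh*, the first enzyme of serine synthesis, had 11.58, 11.56, 11.48 and 11.51 in ZD rats and 11.26, 11.33, 11.34 and 11.21 in PF rats, without overlap (0.25 ± 0.08). *Asns*, asparagine synthetase, was likewise higher in each ZD rat (0.21 ± 0.07), while *Cth*, which makes cysteine, stood at -0.38 ± 0.13 with overlap. The list of 17 genes around the amino acid response had 9 higher and 8 lower (median 0.02). Genes of cholesterol synthesis and its regulators were higher in 15 of 20 (median 0.10). Of the 20, 5 had an unadjusted p under 0.05 in limma, all higher, against 7.94% of all genes in either direction. *Dhcr7*, the last step of the pathway, had 10.04, 9.82, 10.00 and 10.24 in ZD rats and 9.78, 9.54, 9.71 and 9.42 in PF rats (0.42 ± 0.11). *Insig1*, a sterol sensor that SREBP2 induces, had 11.28, 11.25, 11.42 and 11.34 in ZD rats and 11.20, 10.89, 11.14 and 10.83 in PF rats (0.31 ± 0.09). Both were without overlap, and *Hsd17b7* (0.22 ± 0.10), *Srebf2* (0.17 ± 0.08) and *Fdps* (0.16 ± 0.08) stood on the same side with overlap. The median of the list was 0.06 after median centring and 0.06 without ZD rats 8 and 9, with 12 of 20 higher in each. A sterol response element (TCAC, any base, CCAC) was in 0 of 18 promoter windows of the list and in 0.976% of all promoters. In fatty acid synthesis *Fasn* stood at 0.18 ± 0.07 and *Elovl6* at -0.35 ± 0.14, and 10 of 16 genes were higher.

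**Figure D4:**
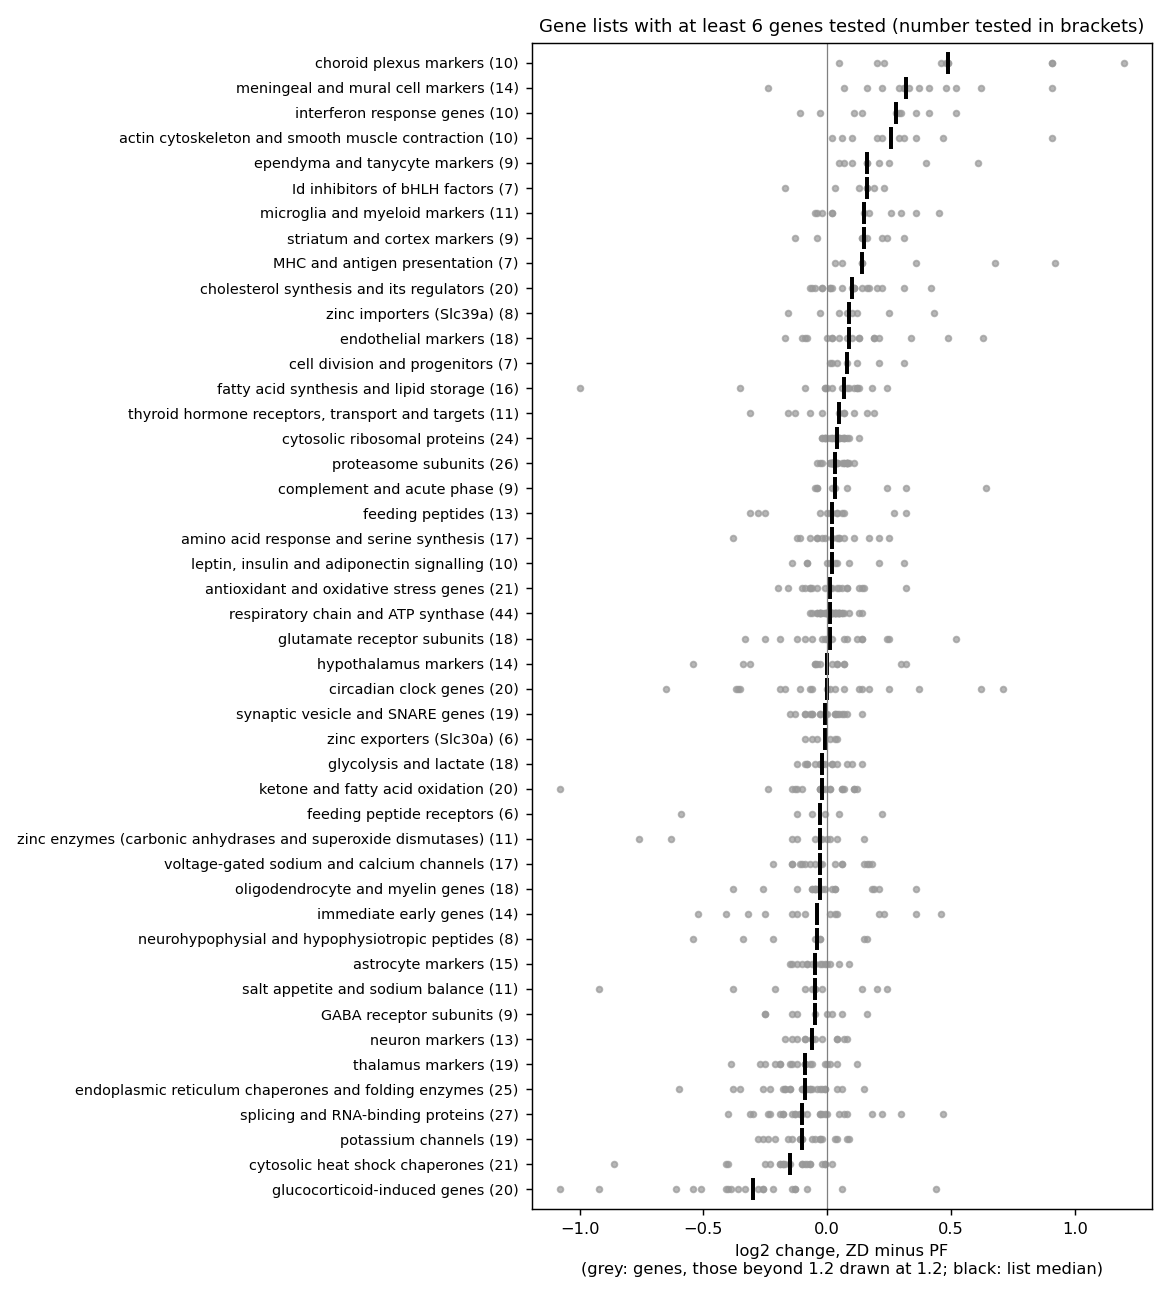
Log2 change (ZD minus PF) of each gene tested, in lists with at least 6 tested genes, ordered by the list median (black bar), with the number tested in brackets. Choroid plexus, meningeal and interferon genes have the highest medians (0.49, 0.32 and 0.28), glucocorticoid-induced genes and heat shock chaperones the lowest (-0.30 and -0.15), and most lists lie near 0.

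Markers of the tissues that line and cover the diencephalon were higher in ZD. Of 10 choroid plexus markers tested, of 16 on the array, 10 were higher, with a median of 0.49. In 4 of them the PF mean lay below the filter and in 1 the ZD mean, and with no filter 16 of 16 were higher, again with a median of 0.49. List means were 0.42, 0.89, 0.40 and -0.23 in ZD rats and -0.44, -0.45, -0.15 and -0.44 in PF rats, so that ZD rat 9 lay among the PF rats. *Ttr*, transthyretin, the most abundant choroid plexus RNA, had 12.76, 13.28, 11.24 and 9.82 in ZD rats and 8.33, 8.09, 10.37 and 7.71 in PF rats. Its change was 3.15 ± 1.28, overlapping through ZD rat 9 and PF rat 4, and 4.40 without ZD rats 8 and 9. *Slc22a8*, an organic anion transporter, was the 1 marker of 10 without overlap (0.49 ± 0.14), against 4.35% of all genes. *Slc13a4* (0.91 ± 0.43) was high in ZD rats 3 and 8, and *Igfbp2* stood at 0.49 ± 0.25. Of 14 meningeal and mural cell markers 13 were higher (median 0.32; 21 of 22 with no filter), with list means of -0.23 to 0.58 in ZD and -0.27 to -0.05 in PF. In bulk tissue, fewer or more cells of a type and less or more RNA per cell cannot be told apart.

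Smooth muscle and collagen genes stood with these markers, and the endothelial list differed less. All 10 tested genes of the actin cytoskeleton and smooth muscle were higher (median 0.26), and 3 were without overlap, against 4.35% of all genes. This list shares *Tagln* with the meningeal and mural list, so the likeness of the lists rests partly on a common member. Besides *Tagln*, the actin crosslinker *Flna* had 8.57, 8.29, 8.75 and 8.25 in ZD rats and 7.93, 7.80, 8.19 and 8.09 in PF rats (0.47 ± 0.12), and the myosin light chain *Myl9* stood at 0.31 ± 0.12. Both were higher in every ZD rat. The mean of the actin and smooth muscle list was 0.23, 0.02, 0.30 and 0.02 in ZD rats and -0.18 to -0.10 in PF rats. ZD rat 9 had choroid plexus and meningeal means (-0.23 and -0.23) within the range of the PF rats. *Col1a1*, a fibrillar collagen (0.52 ± 0.18), *Vtn*, vitronectin of pericytes (0.31 ± 0.11), and *Vwf* of endothelium (0.49 ± 0.14) also had groups without overlap. *Col1a1* and *Vtn* are themselves members of the meningeal and mural list. Of 18 endothelial markers tested 14 were higher (median 0.09), and *Vwf* was the 1 without overlap, against 4.35% of all genes. After median centring 11 of the 18 were higher (median 0.05). *Vim*, an intermediate filament of tanycytes, astrocytes and vessels, had 10.86, 11.20, 11.17 and 10.67 in ZD rats and 10.48, 10.67, 10.57 and 10.55 in PF rats (0.40 ± 0.10). Of 16 ependyma and tanycyte markers 9 were tested, and 9 of 9 were higher (median 0.16), but in 2 of these the PF mean lay below the filter and in none the ZD mean. With no filter 11 of 16 were higher and 5 lower (median 0.10). List means of the tested markers were 0.08 to 0.14 in ZD and -0.20 to -0.04 in PF. *Foxj1*, the regulator of cilia, had 7.48, 8.61, 8.61 and 9.00 in ZD rats against 7.49 to 8.62 in PF rats, a change of 0.61 with all rats and 0.22 without ZD rats 8 and 9. The part of dissection in these lists was not tested.

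Immune genes were higher in ZD in small numbers of bright members. *RT1-S3*, a class I gene of the major histocompatibility complex, had 8.70, 8.99, 8.60 and 8.37 in ZD rats and 7.92, 7.27, 7.73 and 8.07 in PF rats. The groups did not overlap (0.92 ± 0.19, adjusted p = 0.151) and its other probe sets stood at 0.64 and 0.81, but near-identical members of this family may share its probes. All 7 tested genes of this list were higher (median 0.14), as were 14 of 16 with no filter, and list means were 0.10 to 0.28 in ZD and -0.32 to -0.04 in PF. *Cd74*, the invariant chain of class II, stood at 0.68 ± 0.27, with PF rat 1 (8.05) above 3 of 4 ZD rats. *Serping1*, the C1 inhibitor of complement, had 8.35, 8.59, 8.26 and 7.99 in ZD rats and 7.73, 7.43, 7.80 and 7.68 in PF rats (0.64 ± 0.13). *Lyz2*, the lysozyme of myeloid cells, had 10.79, 10.73, 10.74 and 10.40 in ZD rats and 10.28, 10.23, 10.23 and 10.12 in PF rats (0.45 ± 0.09). Both were without overlap, as was the interferon regulatory factor *Irf1* (0.41 ± 0.16). Of 11 microglia and myeloid markers 8 were higher (median 0.15), with *P2ry12* at 0.36 ± 0.14 and *Aif1* at 0.30 ± 0.13. List means were 0.27, -0.05, -0.09 and 0.17 in ZD rats and -0.28 to 0.06 in PF rats, so ZD rats 3 and 8 lay within the PF range. The count was 6 of 11 after median centring or without ZD rat 2, and 11 of 11 without ZD rat 8. With no filter 12 of 18 were higher (median 0.06). Interferon response genes were higher in 8 of 10 tested (median 0.28) and in 15 of 20 with no filter, *Ifitm3* among them (0.52 ± 0.20), but ZD rat 2 carried most of this: its list mean was 0.45 against -0.10 to 0.06 in the other ZD rats and -0.29 to 0.08 in PF rats, and without it the median was 0.05.

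Neuronal genes showed few differences. Of 13 neuron markers 9 were lower (median -0.06), of 19 thalamus markers 16 were lower (median -0.09), and of 14 hypothalamus markers 7 were higher and 7 lower (median 0.00). The thalamus list was low in ZD rats 2 and 3 (-0.19 and -0.10) and not in ZD rats 8 and 9 (0.03 and 0.04), against -0.04 to 0.15 in PF rats. Its median was -0.16 without ZD rats 8 and 9, with 18 of 19 lower. *Vav3* stood at -0.27 ± 0.10 and *Synpo2* at -0.25 ± 0.10, or at -0.45 and -0.39 without these 2 rats. Voltage-gated potassium channels and their relatives, which set repolarization and rest, were lower in 15 of 19 (median -0.10, or -0.03 over 30 genes with dim genes kept). *Kcna4* was lower in every ZD rat (-0.28 ± 0.14), and *Kcna2* (-0.26 ± 0.09), *Kcnc2* (-0.21 ± 0.09, with -0.00 and 0.14 on its other probe sets) and *Kcnj6* (-0.24 ± 0.11) overlapped. Among glutamate receptors 10 of 18 were higher (median 0.01), or 14 of 18 without ZD rats 8 and 9 (median 0.14). *Grm2*, a presynaptic inhibitory receptor, had 8.10, 7.92, 8.11 and 8.42 in ZD rats and 7.57, 7.67, 7.61 and 7.59 in PF rats (0.52 ± 0.18), and *Grin2c*, an NMDA subunit, was also without overlap (0.24 ± 0.09), whereas *Gria4* stood at -0.25 ± 0.12.

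Peptides of feeding and of water and salt balance did not separate the groups as a class. Of 13 feeding peptides 8 were higher (median 0.02), and 1 was without overlap, against 4.35% of all genes. This was *Nucb2*, the precursor of nesfatin, with 8.96, 9.14, 9.14 and 8.99 in ZD rats and 8.74, 8.79, 8.90 and 8.71 in PF rats (0.27 ± 0.13). *Cartpt* had 10.97, 10.83, 11.36 and 11.26 in ZD rats and 10.50 to 11.06 in PF rats, and *Npy* 10.57, 10.48, 10.00 and 10.53 in ZD rats and 10.24 to 10.49 in PF rats. Somatostatin, *Sst*, which inhibits growth hormone release, was lower in every ZD rat, at 9.64, 9.60, 9.46 and 9.65 against 9.94, 9.72, 9.86 and 9.71 in PF rats (-0.22 ± 0.13). *Oxt* spread over 10.91 to 12.60 in ZD rats and 11.97 to 12.46 in PF rats, and *Avp* over 9.93 to 12.20 in ZD rats and 11.37 to 11.71 in PF rats, ZD rat 8 being the lowest and ZD rat 9 the highest in both. *Scn7a*, the sodium sensor channel of the circumventricular organs, stood at -0.38 ± 0.17. Of 11 salt balance genes 8 were lower (median -0.05), or 7 of 11 without ZD rats 8 and 9 (median -0.04). Their list means were 0.08, 0.08, -0.18 and -0.20 in ZD rats and -0.01 to 0.14 in PF rats. The lowest of them was *Sgk1* (-0.92, or -0.03 without ZD rats 8 and 9), already described with the glucocorticoid-induced genes. An unadjusted p under 0.05 in limma was found in 3 of 13 feeding peptides and 2 of 11 salt balance genes, against 7.94% of all genes.

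Whether these differences were still present after zinc was given back was read from the 16-day experiment, whose 8 arrays share none with the 10-day comparison. The difference between the changes of both experiments (ZD minus PF, less ZR minus ZRPF) passed at no probe set (0 of 15521, 0.0%), with a smallest adjusted p of 0.375 and 1025 probe sets at an unadjusted p under 0.05. Of the 12 leading genes with higher signal in ZD, 6 were higher and 6 lower in ZR than in ZRPF, with a median of 0.00. Of the 12 with lower signal, 9 were lower in ZR, with a median of -0.06. These genes were chosen for a small p at 10 days, which by itself makes a smaller value in another experiment likely. *RT1-S3* stood at 0.75 ± 0.19 (ZR minus ZRPF) and *C1qtnf12* at 0.44 ± 0.17. *Vim* stood at 0.40 at 10 days and at -0.34 ± 0.10 in ZR against ZRPF, a difference of 0.74 ± 0.14 (adjusted p = 0.375). *Clstn3*, a synaptic adhesion protein, had the same adjusted p from a change in the later experiment (-1.71 ± 0.26) and not at 10 days (0.17 ± 0.26). *Tax1bp3*, a PDZ-domain protein, stood at 0.37 ± 0.12 at 10 days and -0.41 ± 0.12 later, and on the other side *Cfdp1* (-0.17 and 0.26), *Dpm1* (-0.24 and 0.10) and *Vwc2* (-0.33 and 0.28) had opposite signs in the experiments without passing. Glucocorticoid-induced genes had a median of -0.27 in ZR against ZRPF, heat shock chaperones of -0.09 and choroid plexus markers of -0.27.

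**Figure D5:**
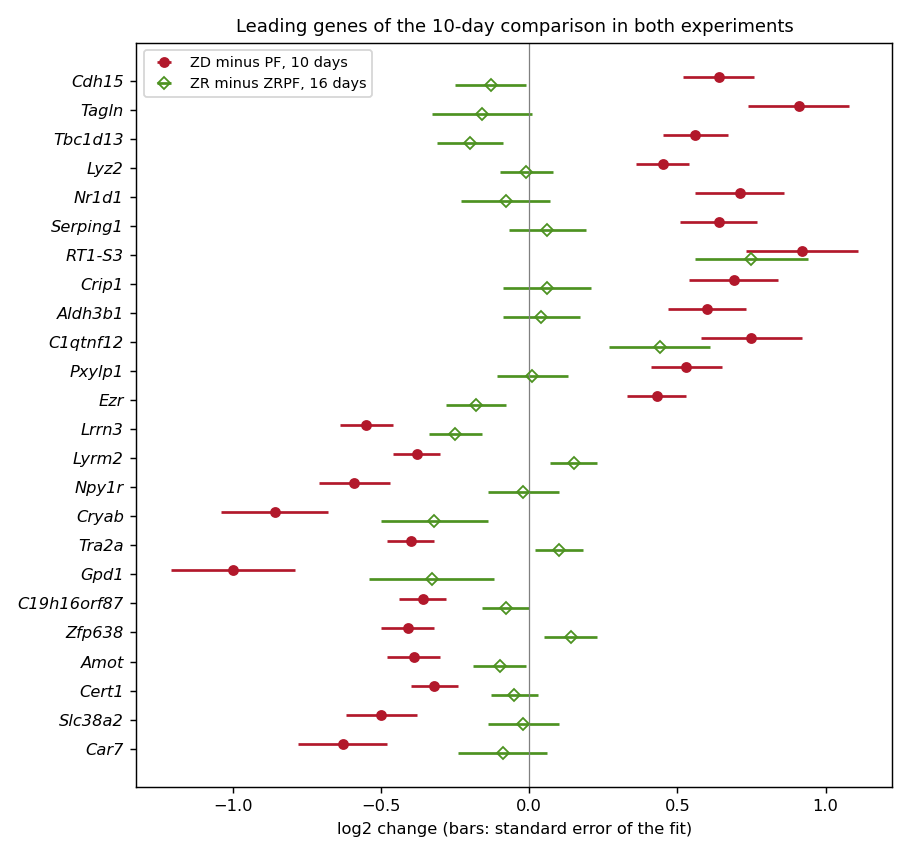
Log2 change and its standard error for the 24 leading genes of the 10-day comparison, as ZD minus PF (filled circles, 10 days) and as ZR minus ZRPF (open diamonds, after 6 days of zinc). Most diamonds lie near 0, *RT1-S3* (0.75) and *C1qtnf12* (0.44) being the highest and *Gpd1* (-0.33) and *Cryab* (-0.32) the lowest.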

How the data were processed

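RNA of single rat diencephalons was amplified from the 3′ end and hybridised to Affymetrix arrays, per the labels' protocols. The deposited values are signal intensities on a linear scale, 1 for each probe set of an array, made by the authors with MAS5 per the submitters' processing notes; its version and settings are not given in the sources used here. Each array's mean without the outer 2% at either end was 500.1, so the arrays had been scaled to a common mean. Of 31099 probe sets, 57 controls were left out. Signals were taken as log2 with no further normalization, and probe sets with a mean log2 signal over 16 arrays at or above the median (7.351) were tested, 15521 in all. By the platform annotation 20826 probe sets had 1 gene, 436 had several and 9780 had none; symbols were updated through RefSeq for 20764. Each gene's values are those of the brightest of its tested probe sets.

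The 4 groups of 4 arrays were fitted with limma 3.58.1 in R 4.3.3 (lmFit, eBayes with trend), two-sided, with Benjamini-Hochberg adjustment over all probe sets tested and a threshold of 0.05. The number of arrays limits the precision. With 4 against 4 rats an exact permutation test cannot go below p = 0.0286, the value of any gene whose groups do not overlap. Gene lists (49, with 705 tested memberships) are described by counts and medians with no test. Named genes were the 12 of smallest p in each direction, the 10 of largest change without overlap, the 5 of largest statistic in each list, a set of single genes of zinc, feeding and stress, and the 6 of smallest p for the difference between experiments in each direction. The members and lists were chosen with earlier results of these data known. The fit was tested on simulated data. Alternatives were median centring, quantile normalization, no filter, only the top 10348 probe sets by mean signal, 32 added to the signal before taking log2, array weights, no trend, the 8 arrays alone, and each rat left out; leaving out ZD rats 8 and 9 together was added after seeing the data.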

Additional observations from a re-analysis of the deposited data

Results flagged for a closer look

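For 136 genes named in the text, each group of 4 rats was searched for a rat far from the other 3 (by Dixon's ratio), and 16 of 272 groups met this, where chance gives about 1 in 20. All values are log2 signals. PF rat 6 was the outlying rat in 4 of them. For *Slc38a2* PF rat 6 had 12.37 and the other PF rats 11.92 to 12.00; for *Prpf38b* PF rat 6 had 9.49 and the other PF rats 8.75 to 8.87. For *Slc39a10* PF rat 6 had 11.06 and the other PF rats 11.22 to 11.25, PF rat 6 being the lowest of all 8 rats, and for *Jund* PF rat 6 had 11.83 and the other PF rats 12.01 to 12.02. In these 4 genes PF rat 6 lay away from the ZD rats, so it adds to the difference between the groups. PF rat 4 stood out in 3 genes: for *Slc39a11* PF rat 4 had 8.90 and the other PF rats 8.59 to 8.64, for *Asns* PF rat 4 had 9.85 and the other PF rats 9.98 to 10.00, and for *Txnip* PF rat 4 had 10.36 and the other PF rats 10.11 to 10.15. For *Car14* PF rat 2 had 9.29 and the other PF rats 9.55 to 9.60, and for *Foxj1* PF rat 2 had 8.62 and the other PF rats 7.49 to 7.59. For *Car3* PF rat 1 had 10.37 and the other PF rats 7.97 to 8.31, and for *Col1a1* PF rat 1 had 7.51 and the other PF rats 7.63 to 7.65.

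Among ZD rats, for *Lyz2* ZD rat 9 had 10.40 and the other ZD rats 10.73 to 10.79, all of them above every PF rat. For *Aspa* ZD rat 9 had 10.13 and the other ZD rats 9.59 to 9.68, with those others lower than all PF rats. For *C19h16orf87* ZD rat 2 had 10.34 and the other ZD rats 10.48 to 10.50, and for *Cry1* ZD rat 2 had 9.10 and the other ZD rats 8.75 to 8.80, the value that makes its groups overlap. For *Npy* ZD rat 8 had 10.00 and the other ZD rats 10.48 to 10.57, and that rat is also the lowest of the ZD rats for *Oxt* and *Avp*.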

How the results depend on the processing

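No probe set passed between ZD and PF in any setting with all rats. With 1 rat left out the count ran from 0 to 3, reached without ZD rat 8, and with ZD rats 8 and 9 both left out it was 1, that of *Csrnp3* (1.34), a gene named after its value was seen. For the difference between experiments the count ran from 0 to 1 with 1 rat left out, reached without ZD rat 9. Genes without overlap numbered 404, 280 to 603 with another scaling, filter or weighting, 568 to 1040 with 1 rat left out and 1787 without ZD rats 8 and 9, since fewer rats overlap less often. *Lrrn3* and *Npy1r* passed without ZD rat 8 (-0.61 and -0.73). Of 136 named genes, 125 kept their direction in every alternative run. For the other 11 the change crossed 0. Without ZD rats 8 and 9, *Per1* stood at 0.10, *Fos* at 0.033, *Mtf1* at 0.057, *Clstn3* at -0.071 and *Cga* at 1.60. With array weights *Cga* was at 0.21 and *Mtf1* at 0.015, *Mtf1* was at 0.005 after quantile normalization and *Npy* at -0.007 after median centring. With 1 rat left out, the changes ran from -0.31 to 0.014 for *Fkbp5*, from -0.013 to 0.11 for *Mt3*, from -0.045 to 0.056 for *Mtf1*, from -0.022 to 0.17 for *Npy*, from -0.67 to 0.091 for *Avp*, from -0.13 to 0.034 for *Crh*, from -0.17 to 0.034 for *Trh*, from -0.071 to 0.33 for *Clstn3* and from -1.34 to 0.39 for *Cga*. The causes were not tested. Of 46 lists, 23 kept the sign of their median throughout. No paired analysis was possible because ZD and PF share only rat number 2, and the labels do not tie equal numbers to each other.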

Other observations

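Housekeeping machinery that the report leaves aside differed by little. Of 26 proteasome subunits 23 were higher in ZD with a median change of 0.03, but 10 of 26 were higher after median centring and 8 of 26 without ZD rat 9, whose list mean was 0.17 against -0.06 to -0.00 in the other ZD rats and -0.07 to 0.01 in PF rats. Of 44 respiratory chain and ATP synthase subunits 33 were higher (median 0.01), and of 24 ribosomal proteins 18 (median 0.04), in both of which ZD rat 9 also had the highest list mean (0.15 and 0.12). After median centring 10 of 44 respiratory chain genes and 11 of 24 ribosomal genes were higher; these counts were 11 of 44 and 13 of 24 without ZD rat 9. In glia, *Opalin*, a myelin protein, stood at 0.36 ± 0.12 and *Aspa*, the oligodendrocyte enzyme that splits N-acetylaspartate, at -0.38 ± 0.12, while the myelin list as a whole had 7 higher and 11 lower (median -0.03) and astrocyte markers 4 higher and 11 lower (median -0.05). *Txnip*, an arrestin that restrains glucose uptake, stood at 0.32 ± 0.10 and *Ccnd1*, cyclin D1, at 0.31 ± 0.09, each with groups that overlapped.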
